A study of Mus musculus with 18 samples.

Results

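Round spermatids (RS) are haploid germ cells, and the genes of meiotic chromosome synapsis and recombination are named for a step these cells have already passed. A set of 10 such genes, written below as the 10 meiotic genes, was followed by their gene symbols: *Sycp1*, *Sycp2*, *Sycp3*, *Syce1*, *Syce2*, *Hormad1*, *Hormad2*, *Dmc1*, *Spo11* and *Msh4*. They are 10 of the 54232 genes in the table, and were taken as a measure of RNA of spermatocytes in the RS preparations and of its carry-over into haploid cells. All 10 passed the filter on low counts, as did 21058 genes in all.

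RNA was measured in RS isolated from testes of WT, KO and KI mice of 75 to 85 days, with 6 libraries per genotype and 18 in all. KO mice lack GRTH, the RNA helicase encoded by *Ddx25*. KI mice carry a human GRTH gene with a missense mutation that leaves the protein without its phosphorylated form, and both mutants have been described as arrested at the round spermatid stage. RS were enriched by sedimentation through an albumin gradient, so that RNA of any other cells left in the preparation was counted too. The paper describes a check of the purity of the fractions by DAPI staining. Total RNA was sequenced without polyA selection. The labels do not say that the libraries came from separate animals, and p-values measure the spread between these libraries, which may be partly technical.

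In meiotic prophase, SPO11 makes double-strand breaks in DNA, DMC1 coats the processed ends and searches for the homologue, and MSH4 steadies the joined molecules that can become crossovers. The homologues are zipped together at the same time by the synaptonemal complex, in which SYCP2 and SYCP3 form the lateral elements, SYCP1 the transverse filaments, and SYCE1 and SYCE2 part of the central element. HORMAD1 and HORMAD2 mark chromosome axes that are not yet synapsed.

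A library held 18766971 to 26776555 counts on genes. *Ddx25*, the targeted gene, lay at 538 to 607 normalized CPM in WT and 47.7 to 90.9 in KO. In KI it was at or below 0.519 in 5 libraries and at 56.9 in the library labelled KI 4, which goes against its label. These are counts on the mouse gene. The paper describes the non-phosphorylated protein as unaffected in KI. Whether RNA of the human gene was counted here was not tested. The counts of the library labelled KI 4 were also the closest of any pair to those of KO 2. The median squared difference over genes was 1.59 times that of counting noise for this pair, against 2.05 to 3.24 for the 6 closest pairs within a genotype (KO 4 and 5, WT 1 and 2, KI 1 and 2, KI 3 and 5, WT 3 and 4, WT 5 and 6). The genes listed for elongating spermatids, such as the protamines, summed to 14216 to 19771 normalized CPM in WT, 1662 to 4189.8 in KO and 2203 to 3417 in KI. The paper describes RNA of *Prm2* and *Tnp2*, which are in this list, as made already in RS and translated later, in elongating spermatids.

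Promoters are shown for *Sycp3* and *Hormad1*, which were higher in KO, and for *Syce2*, which was lower, because these genes moved in opposite directions while a promoter window of each held the same short motifs. The sequences are from RefSeq on GRCm38.p6 and run 5′ to 3′ from 250 bases before to 50 bases after an annotated start. Capitals mark the E-box CACGTG and GCGGGAA, an E2F-type motif, each searched on both strands with no overlap between them.
*Sycp3* promoter, chr10:88459337-88459636, plus strand: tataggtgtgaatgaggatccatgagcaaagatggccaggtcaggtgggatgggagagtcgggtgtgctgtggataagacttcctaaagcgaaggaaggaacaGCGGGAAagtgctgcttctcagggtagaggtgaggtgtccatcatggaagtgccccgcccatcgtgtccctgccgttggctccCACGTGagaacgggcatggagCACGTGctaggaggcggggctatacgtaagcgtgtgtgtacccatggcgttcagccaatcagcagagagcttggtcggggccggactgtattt
*Hormad1* promoter, chr3:95559427-95559726, plus strand: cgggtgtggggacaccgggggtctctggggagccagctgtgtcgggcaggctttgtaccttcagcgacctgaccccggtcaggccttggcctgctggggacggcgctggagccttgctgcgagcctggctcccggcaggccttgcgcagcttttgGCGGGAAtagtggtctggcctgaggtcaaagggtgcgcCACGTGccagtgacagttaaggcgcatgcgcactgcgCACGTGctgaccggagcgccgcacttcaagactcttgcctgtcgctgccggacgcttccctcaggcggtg
*Syce2* promoter, chr8:84872008-84872307, plus strand: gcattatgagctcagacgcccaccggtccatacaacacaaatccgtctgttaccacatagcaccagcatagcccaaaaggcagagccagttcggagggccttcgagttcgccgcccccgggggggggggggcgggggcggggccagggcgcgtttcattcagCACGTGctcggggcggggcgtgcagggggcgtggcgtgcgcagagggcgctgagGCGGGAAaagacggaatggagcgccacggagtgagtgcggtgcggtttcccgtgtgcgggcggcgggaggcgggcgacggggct

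The table held a promoter for 9 of the 10 meiotic genes, all but *Spo11*. CACGTG was in the promoters of *Sycp1*, *Sycp3*, *Syce2* and *Hormad1*, that is 4 of 9, and in 8.09% of the 27025 genes with a promoter, where a gene with several starts was counted if any of its windows held the motif. GCGGGAA was in 3 of 9, *Sycp3*, *Syce2* and *Hormad1*, and in 5.29% of all. The cyclic AMP response element TGACGTCA was in 0 of 9 and in 2.03% of all. In the promoters shown, the CACGTG copies begin 64 and 43 bases before the start of *Sycp3*, 57 and 20 before that of *Hormad1* and 88 before that of *Syce2*. *Syce2* has a second window in the table, chr8:84871861-84872160, which holds neither CACGTG nor GCGGGAA, so that its match depends on the start taken. A match is a description of letters and not of binding.

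Levels of different genes were compared per kilobase of exon. In WT, *Syce1* was the most abundant of the 10 meiotic genes at 174 ± 50.8 normalized CPM per kb (SD, n = 6), with no overlap with the next. *Sycp2* (86.7 ± 16.6), *Syce2* (69.2 ± 10.6), *Hormad1* (47.2 ± 8.53), *Sycp3* (45.6 ± 10.3) and *Sycp1* (42.7 ± 2.98) followed, and each of these neighbours overlapped in range with the next. *Spo11* (21.9 ± 3.72), *Hormad2* (8.41 ± 1.05), *Msh4* (2.89 ± 0.632) and *Dmc1* (1.38 ± 0.320) were lower, and each of these 4 was separated from its neighbours.

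The order differed in the mutants for the same pair of genes. *Syce2* stood at place 3 in WT and place 6 in KO and KI, at 31.3 ± 6.26 and 28.5 ± 6.54 normalized CPM per kb. *Sycp3* stood at place 5 in WT and place 3 in both mutants, at 76.2 ± 8.34 in KO and 76.6 ± 12.1 in KI. The remaining genes kept their order relative to each other. *Msh4* and *Dmc1*, the least abundant pair, did not overlap in WT and overlapped in KO and in KI.

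**Figure D1:**
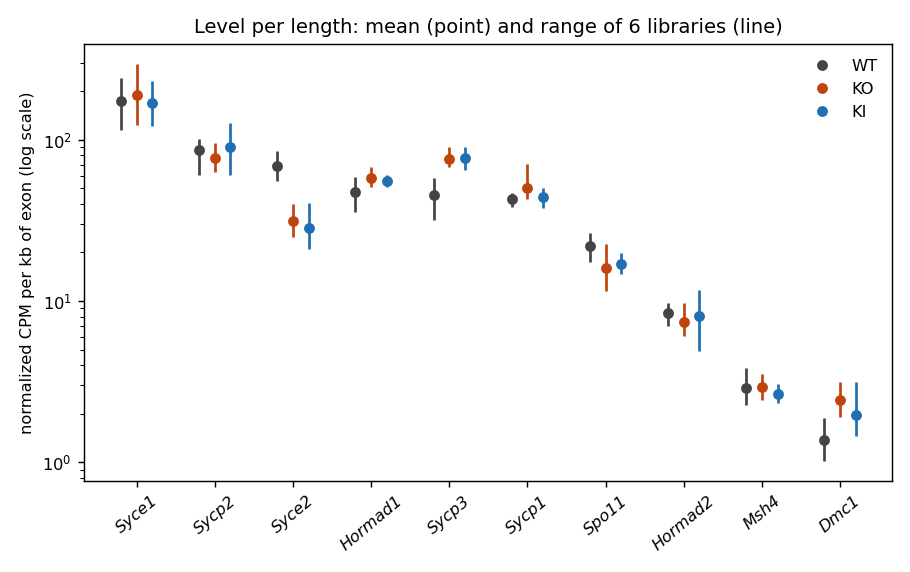
Levels per length of the 10 meiotic genes (x axis, in the order of WT) in normalized CPM per kb of exon on a log axis; points are means and lines the range of the 6 libraries of WT, KO and KI. *Syce2* drops and *Sycp3* rises in order in both mutants, while *Syce1* stays first and *Dmc1* last.

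The first question was whether RS of mice without GRTH differ from WT in these genes. In KO, 3 of the 10 meiotic genes rose (*Sycp3*, *Dmc1* and *Hormad1*), 2 fell (*Syce2* and *Spo11*) and 5 were not called by a test for any change (edgeR's quasi-likelihood test, Benjamini-Hochberg adjusted p under 0.1). Over all tested genes, 29.9% passed in this comparison, 16.4% upward and 13.5% downward. Against a change of 1 log2 unit, 0 of the 10 passed the edgeR test (glmTreat), and 1.73% of all genes did, 0.598% upward and 1.13% downward. At an unadjusted p under 0.05 this was still 0 of the 10, and DESeq2 called 0. The median log2 fold change of the 10 was 0.075, against 0.026 over all tested genes.

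In KI, *Sycp3* and *Dmc1* rose, *Syce2* and *Spo11* fell, and 6 did not pass, where 31.6% of all tested genes passed, 16.1% upward and 15.4% downward. The test against 1 log2 unit was passed by 0 of the 10 and by 1.95% of all genes, 0.522% upward and 1.43% downward. At an unadjusted p under 0.05 it was passed by 1 of the 10, *Syce2*, and DESeq2 called 0. Their median log2 fold change was 0.00495, against 0.054 over all genes. The KO and KI comparisons share the WT libraries, so that each gene's values in both are given side by side and their likeness was not tested. Between KI and KO directly, 0 of the 10 were called by edgeR at any amount or past 1 log2 unit, with 0.0997% of all genes called at any amount, 0.076% upward and 0.0237% downward, and 0.00475% past 1. At an unadjusted p under 0.05 the count was 0 of 10 as well, and DESeq2 called 0. These values include the library labelled KI 4. Without it, edgeR called 111 genes of all between KI and KO at any amount, against 21 with it. Of the 10, 0 were called without it.

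**Figure D2:**
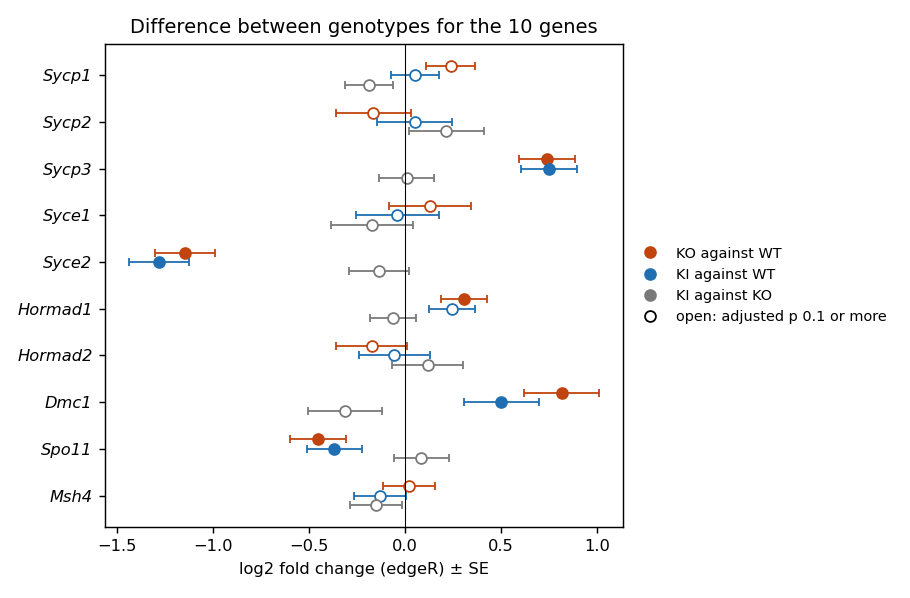
Log2 fold change (x axis, edgeR, error bars ± SE) of each of the 10 meiotic genes (y axis) in KO against WT, KI against WT and KI against KO; filled points have an adjusted p under 0.1. *Syce2* lies below −1 in both mutants, *Sycp3* near 0.75 in both, and the values of KI against KO lie between −0.31 and 0.21.

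Summed over the 10, the normalized CPM of a library was 1152 to 1426 in WT, 1155 to 1459.5 in KO and 1169.7 to 1469.9 in KI, so that the genotypes overlapped over nearly the whole range while single genes rose and fell. In RNA of a bulk preparation, fewer cells of a type and less RNA per cell cannot be told apart.

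Among the lateral element genes, *Sycp3* (chr10:88459569-88473236, GRCm38) encodes the core protein of the axes. *Sycp3* had normalized CPM of 40.4, 62.0 and 73.1 (lowest, median and highest library) in WT, 85.5, 95.2 and 114 in KO and 82.5, 93.8 and 115 in KI. Every KO and KI library lay above the highest WT library, and KO and KI overlapped. The means were 57.6 ± 13.1, 96.3 ± 10.5 and 96.9 ± 15.4 in WT, KO and KI (SD, n = 6). *Sycp3* was 1.67-fold higher in KO, with a log2 fold change of 0.74 ± 0.15 (SE) and an adjusted p of 0.00069 by edgeR. In KI it was 1.68-fold higher, with a log2 fold change of 0.75 ± 0.15 and an adjusted p of 0.00056 by edgeR. No overlap in the upward direction was found for 6.62% of all tested genes in KO and 5.97% in KI. WT was not uniform, with WT 1 and 2 at 40.4 and 42.9 and the other 4 libraries at 61.2 to 73.1.

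*Sycp3* shares 660 of its 1264 exonic bases with *Chpt1*, an enzyme gene of phosphatidylcholine synthesis on the opposite strand, and the authors counted reads by strand. *Chpt1*, looked at after its values were seen, had 72.6, 81.2 and 94.5 normalized CPM as lowest, median and highest in WT, 23.9, 32.2 and 39.1 in KO and 21.8, 31.0 and 34.8 in KI. Its levels lay lower in every KO and KI library than in WT, the opposite direction to *Sycp3*. The part of this overlap in the values of *Sycp3* was not tested.

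*Sycp2* (chr2:178345293-178407685) encodes the binding partner of SYCP3. In WT the lowest, median and highest library had 362, 557 and 602 normalized CPM of *Sycp2*, against 378, 455 and 572 in KO and 363, 481 and 763 in KI. The spread was widest in KI, where KI 3 and KI 5 were at 763 and 759 and KI 1, KI 2 and the library labelled KI 4 at 363 to 387. The log2 fold change was −0.16 ± 0.20 in KO (adjusted p 0.614) and 0.05 ± 0.20 in KI (adjusted p 0.896), neither past the edgeR threshold. Per kilobase, the ratio of *Sycp3* to *Sycp2* counts within a library, which no scaling between libraries changes, had a lowest, median and highest value of 0.325, 0.548 and 0.797 in WT, 0.815, 0.920 and 1.25 in KO and 0.513, 0.967 and 1.49 in KI. KO lay above WT in every library. KI covered the range of KO and reached into that of WT, with KI 3 and KI 5 lowest at 0.513 and 0.527, while WT 1 and 2 at 0.325 and 0.384 lay below every KI library.

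*Sycp1* (chr3:102818499-102936100) encodes the filaments that bridge the homologues. Normalized CPM of *Sycp1* were 136, 151 and 166 (lowest, median and highest) in WT, 152, 167 and 251 in KO and 133, 157 and 179 in KI. KO 1 stood apart at 251, and the other 17 libraries ranged from 133 to 179, with the genotypes overlapping. The log2 fold change was 0.24 ± 0.13 in KO (adjusted p 0.189) and 0.05 ± 0.13 in KI (adjusted p 0.820) by edgeR. The pseudogene *Sycp1-ps1* was at 9.54 normalized CPM in KO 1 and at 1.99 to 5.86 in the others.

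The central element genes *Syce1* and *Syce2* parted. *Syce2* (chr8:84872111-84888221) encodes a protein that extends the complex along the chromosomes, and showed the largest difference of the 10 meiotic genes. The lowest, median and highest normalized CPM of *Syce2* were 110.1, 131 and 167 in WT, 48.9, 61.3 and 79.2 in KO and 41.4, 54.4 and 80.1 in KI. Every KO and KI library lay below the lowest WT library, with KO and KI overlapping. The means were 136 ± 20.9, 61.5 ± 12.3 and 56.0 ± 12.9 in WT, KO and KI (SD, n = 6). *Syce2* was 2.21-fold lower in KO, with a log2 fold change of −1.15 ± 0.16 and an adjusted p of 1.20e-05. It was 2.43-fold lower in KI, with a log2 fold change of −1.28 ± 0.16 and an adjusted p of 2.44e-06 by edgeR. No overlap in the downward direction was found for 6.44% of all tested genes in KO and 7.91% in KI. The library labelled KI 4 was highest in its group at 80.1, next to KO 2 at 79.2. Without it KI had a mean of 51.2 ± 5.77 (n = 5) and a log2 fold change of −1.41 ± 0.15, with an adjusted p of 5.26e-07 by edgeR.

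*Syce1* (chr7:140777229-140787852) varied more between libraries of 1 genotype than between genotypes. *Syce1* had normalized CPM of 167, 251 and 351 (lowest, median and highest library) in WT, 181, 271 and 433 in KO and 178, 227 and 339.7 in KI. High values stood in WT 1 and 2, KO 1 and 6, and KI 1 and 2, and the groups overlapped throughout. The log2 fold change was 0.13 ± 0.21 in KO (adjusted p 0.732) and −0.04 ± 0.21 in KI (adjusted p 0.927). Within a library, the ratio of *Syce2* to *Sycp3* counts per kilobase had a lowest, median and highest value of 0.967, 1.67 and 2.03 in WT, 0.278, 0.445 and 0.508 in KO and 0.306, 0.353 and 0.499 in KI. *Syce2* was thus the more abundant of the pair in 5 of 6 WT libraries and the less abundant in all 12 mutant libraries. The ratio of *Syce2* to *Syce1*, also per kilobase, had a lowest, median and highest value of 0.261, 0.361 and 0.690 in WT. It had 0.0943, 0.187 and 0.281 in KO and 0.120, 0.171 and 0.281 in KI, so that WT overlapped with both mutants. These ratios and that of *Sycp3* to *Sycp2* were chosen after their values were seen and were not tested.

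**Figure D3:**
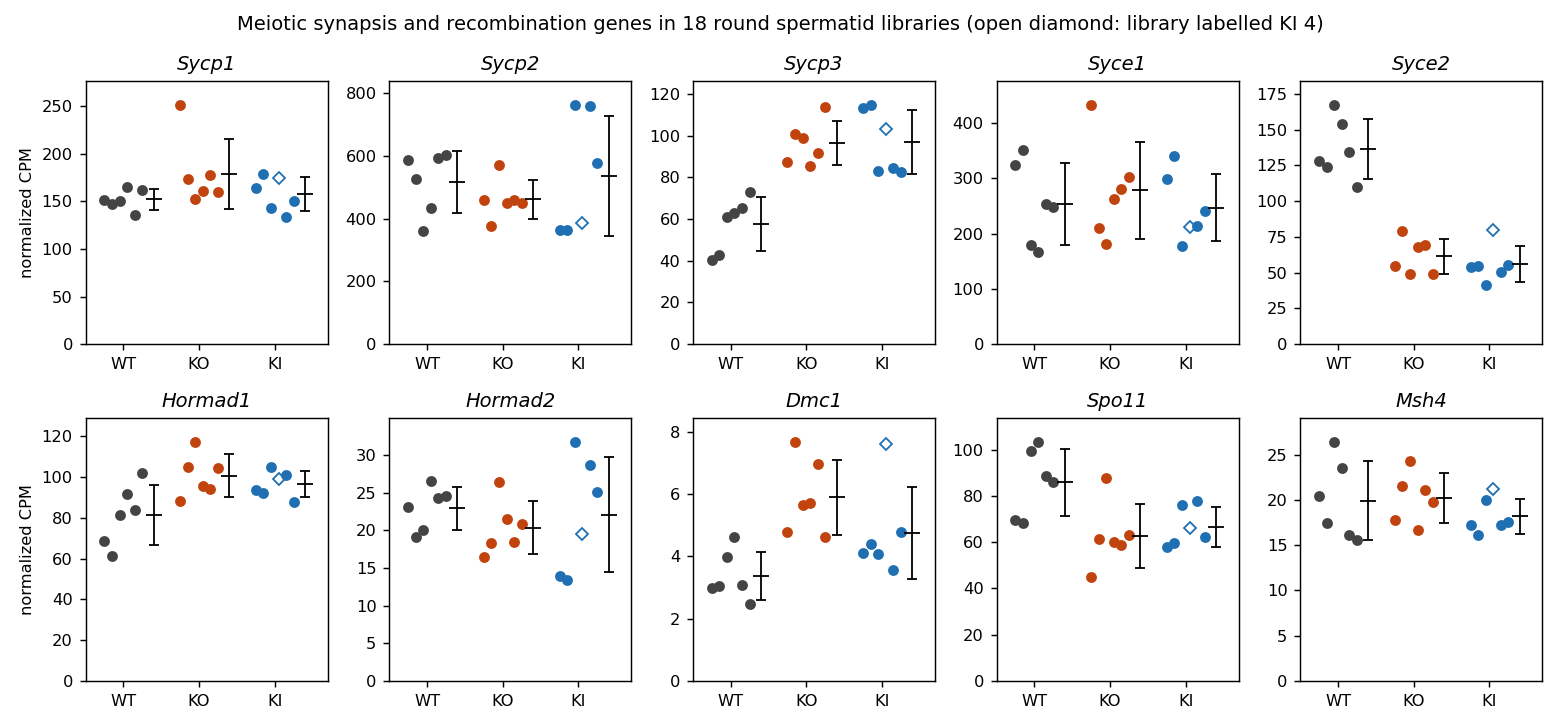
Normalized CPM (y axes, from 0) of each of the 10 meiotic genes in the 6 libraries of WT, KO and KI, in the order of their numbers; black marks are means ± SD, and the open diamond is the library labelled KI 4. *Sycp3* lies higher and *Syce2* lower in every mutant library than in WT, and *Sycp2*, *Syce1* and *Hormad2* vary widely within a genotype.

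The axis proteins HORMAD1 and HORMAD2 are removed from chromosomes as these synapse. In WT the lowest, median and highest library had 61.5, 82.7 and 102 normalized CPM of *Hormad1*, against 88.3, 100.1 and 117 in KO and 87.9, 96.6 and 105 in KI. WT reached into the range of both mutants, with WT 1 and 2 lowest at 68.8 and 61.5. *Hormad1* (chr3:95559677-95587671) was 1.24-fold higher in KO, with a log2 fold change of 0.31 ± 0.12 and an adjusted p of 0.068 by edgeR. This call was lost without WT 1, 2 or 3 or KO 2, 3 or 6, where the adjusted p reached 0.165. It was also lost with DESeq2's size factors (adjusted p 0.101), with no filter on low counts (0.248) and with close pairs of libraries summed (0.254). In KI the log2 fold change was 0.24 ± 0.12 (adjusted p 0.145), which passed the threshold only without WT 6, at an adjusted p of 0.042 by edgeR.

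Normalized CPM of *Hormad2* were 19.1, 23.8 and 26.6 (lowest, median and highest) in WT, 16.5, 19.7 and 26.5 in KO and 13.5, 22.4 and 31.8 in KI. *Hormad2* (chr11:4345814-4441105) had the widest range in KI, with KI 3 and KI 5 high at 31.8 and 28.7, and KI 1 and KI 2 lowest, the latter at 13.5, the same libraries that were high and low in *Sycp2*. Its log2 fold change was −0.17 ± 0.18 in KO (adjusted p 0.562) and −0.06 ± 0.18 in KI (adjusted p 0.871) by edgeR.

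**Figure D4:**
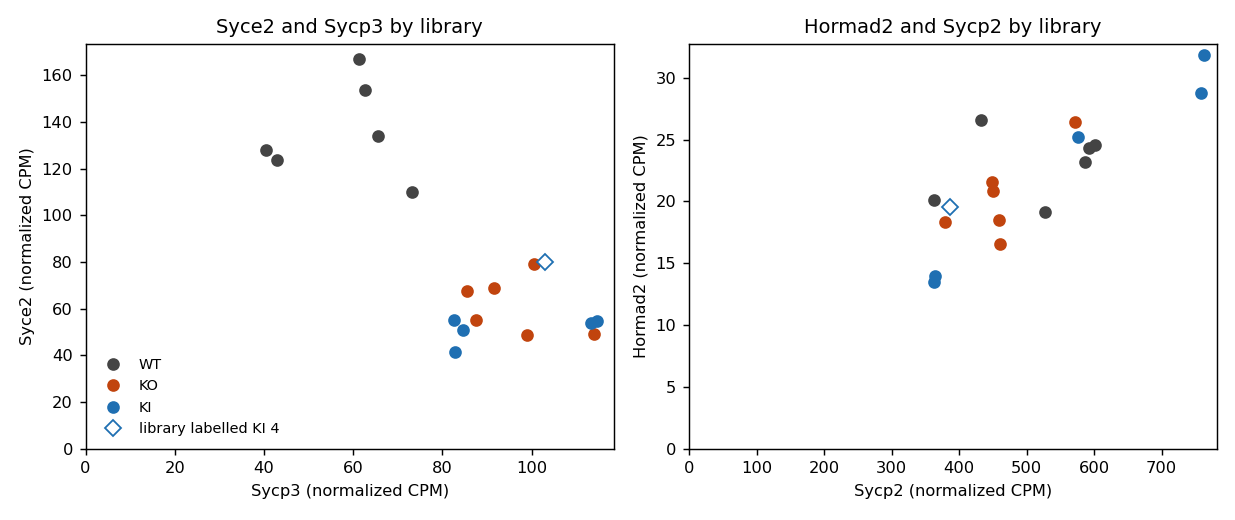
Normalized CPM of *Syce2* against *Sycp3* (left) and of *Hormad2* against *Sycp2* (right), 1 point per library, all axes from 0; the open diamond is the library labelled KI 4. On the left the WT libraries stand apart from both mutants, and on the right the genotypes mix, with KI 3 and KI 5 highest on both axes and KI 1 and KI 2 lowest in *Hormad2*.

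Of the recombination genes, *Spo11* (chr2:172977700-172993576), the nuclease that starts recombination, fell. The lowest, median and highest normalized CPM of *Spo11* were 68.4, 87.4 and 104 in WT, 45.0, 60.7 and 87.9 in KO and 57.8, 64.2 and 78.0 in KI. The groups overlapped, since KO 3 at 87.9 and KI 3 and KI 5 at 75.9 and 78.0 lay above WT 1 and 2 at 69.7 and 68.4. *Spo11* was 1.37-fold lower in KO, with a log2 fold change of −0.45 ± 0.14 and an adjusted p of 0.026, and 1.29-fold lower in KI, with a log2 fold change of −0.37 ± 0.14 and an adjusted p of 0.068 by edgeR. The call in KI was lost without WT 3, 4, 5 or 6 or KI 1, 2 or 6, where the adjusted p by edgeR reached 0.310. It was lost as well with no filter on low counts (adjusted p 0.148) and with close pairs of libraries summed (0.364), and the call in KO with close pairs summed (0.219).

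*Dmc1* (chr15:79561497-79605109), the meiotic recombinase, was the least abundant of the 10 per length, at 54 to 95 counts per library in WT, 88 to 176 in KO and 76 to 180 in KI. *Dmc1* had normalized CPM of 2.48, 3.07 and 4.61 (lowest, median and highest library) in WT, 4.63, 5.68 and 7.68 in KO and 3.55, 4.25 and 7.62 in KI. Every KO library lay above every WT library, and KI overlapped with WT. *Dmc1* was 1.76-fold higher in KO, with a log2 fold change of 0.82 ± 0.20 and an adjusted p of 0.004 by edgeR. In KI it was 1.42-fold higher, with a log2 fold change of 0.50 ± 0.20 and an adjusted p of 0.067. The library labelled KI 4 stood above the rest of its group at 7.62, next to KO 2 at 7.68. Without it the mean of KI was 4.18 ± 0.45 (n = 5), and the log2 fold change was 0.32 ± 0.18 with an adjusted p of 0.213 by edgeR. The call in KI was also lost without WT 1, WT 2 or WT 5, at adjusted p of 0.125, 0.122 and 0.114. Leaving out WT 5 ended the calls of *Dmc1* and *Spo11* together and left 2 of the 10 called in KI, *Sycp3* and *Syce2*.

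In WT the lowest, median and highest library had 15.6, 18.9 and 26.5 normalized CPM of *Msh4*, against 16.7, 20.5 and 24.3 in KO and 16.1, 17.4 and 21.2 in KI. *Msh4* (chr3:153857149-153906138), the crossover stabilizer, overlapped among all genotypes, with a log2 fold change of 0.02 ± 0.14 in KO (adjusted p 0.944) and −0.13 ± 0.14 in KI (adjusted p 0.546) by edgeR. It shares 125 of its 6895 exonic bases with a small nucleolar RNA gene on the opposite strand. Except for *Msh4* and *Sycp3*, the 10 meiotic genes share no exonic base with another gene.

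The library labelled KI 4 and KO 2 lay close to each other in the 10 meiotic genes, as with 387 and 378 normalized CPM of *Sycp2*. Other libraries lay between them in *Hormad1*, *Hormad2* and *Spo11*, the last at 66.3 and 61.5. Leaving that library out left 3 of the 10 called in KI, *Sycp3* higher and *Syce2* and *Spo11* lower, and 5 called in KO. Summing the close pairs of libraries, which leaves 3 WT, 5 KO and 4 KI libraries, left *Sycp3*, *Dmc1* and *Syce2* called in KO, and *Sycp3* and *Syce2* in KI. Over all tested genes the calls fell as well, from 6297 to 3655 in KO and from 6644 to 3402 in KI. The calls of *Sycp3* and *Syce2* in both mutants passed in each of the 26 alternatives run.

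The wider set of meiotic genes was read by lists of the same roles, beside the 16.4% of all tested genes that rose and 13.5% that fell in KO and the 16.1% and 15.4% in KI. Of 8 other synapsis genes, 4 rose and 0 fell in KO, and 2 rose and 1 fell in KI, with median log2 fold changes of 0.27 and 0.20. *Syce3*, a central element gene like *Syce2*, had a log2 fold change of −0.34 ± 0.17 in KO (adjusted p 0.178) and fell in KI by edgeR (−0.66 ± 0.18, adjusted p 0.007). *Tex12*, the partner of SYCE2 in the central element, rose in KO (0.51 ± 0.17, adjusted p 0.033 by edgeR), opposite to *Syce2*. *Trip13*, the ATPase that strips HORMAD proteins from synapsed axes, rose in KO (0.37 ± 0.12) and in KI (0.39 ± 0.12), with adjusted p of 0.032 and 0.022. The summed level of this list was 122 to 144 normalized CPM in WT, 134 to 145 in KO and 123 to 154 in KI, with overlap.

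Among 4 meiotic cohesins, which hold sister chromatids along the axes, 1 rose in KO and 0 were called in KI by edgeR or DESeq2 (1 at an unadjusted p under 0.05), with medians of 0.17 and 0.14. It was *Rad21l*, at a log2 fold change of 0.998 ± 0.274 (adjusted p 0.010). Of 8 genes of the double-strand break machinery other than *Spo11*, 3 rose in KO and 1 in KI, and 0 fell, with medians of 0.26 and 0.14. *Prdm9*, which marks the sites of breaks, rose in KO by 0.94 ± 0.21 on the log2 scale (adjusted p 0.002) and had 0.31 ± 0.21 in KI (adjusted p 0.319). *Iho1*, a partner of HORMAD1, rose in both, by 0.38 ± 0.12 in KO and 0.50 ± 0.12 in KI, with adjusted p of 0.019 and 0.003. No gene of this list thus shared the lower level of *Spo11* past the threshold.

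Of 8 strand exchange factors, which act with DMC1, 2 rose and 1 fell in KO, and 1 rose in KI, with medians of 0.15 and 0.12. *Mnd1*, a helper of DMC1, rose in KO by 0.65 ± 0.23 on the log2 scale (adjusted p 0.044 by edgeR), a call that was lost without WT 1. *Meiob*, which binds single-stranded DNA, fell in KO with a log2 fold change of −0.46 ± 0.15 (adjusted p 0.025). Of 9 crossover factors other than *Msh4*, 1 rose in KO and 1 in KI, and 0 fell against WT, with medians of 0.21 in both.

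Genes of meiotic entry, which act before synapsis, rose together: 4 of the 4 that passed the filter rose in KO and 4 of 4 in KI, beside 16.4% and 16.1% of all tested genes, and *Rhox10*, with 0 to 7 counts, was not tested. Their median log2 fold change was 0.79 in KO and 0.51 in KI. *Stra8*, the switch of meiotic entry, rose by 1.23 ± 0.27 in KO (adjusted p 0.002) and 0.71 ± 0.27 in KI (adjusted p 0.062), and its partner *Meiosin* by 1.06 ± 0.20 and 0.53 ± 0.20 (adjusted p 0.00052 and 0.064). The KI calls were lost without WT 5, KI 1 or the library labelled KI 4 for both genes, and without WT 1 or WT 2 for *Stra8*. *Meioc* and *Ythdc2*, which sustain the meiotic programme, rose in both mutants with no overlap with WT, as 6.62% of all tested genes did upward in KO and 5.97% in KI. Their log2 fold changes were 0.44 ± 0.11 and 0.53 ± 0.10 in KO and 0.48 ± 0.11 and 0.49 ± 0.10 in KI, with adjusted p of 0.00057 to 0.005 by edgeR. The summed level of the list was 151 to 212 normalized CPM in WT, 230.3 to 269.8 in KO and 239 to 261 in KI.

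Of 10 genes of pachytene spermatocytes and the meiotic divisions, 2 rose and 1 fell in KO, and 2 rose in KI, with medians of 0.06 and 0.13. Of all tested genes, 29.9% and 31.6% were called, so that the count in KO lies near that share and the count in KI below it. The log2 fold changes of this list went both ways, from −0.57 to 0.53 in KO and from −0.36 to 0.65 in KI. *Mybl1*, the transcription factor of pachytene genes, rose by 0.53 ± 0.13 in KO and 0.64 ± 0.13 in KI, with adjusted p of 0.005 and 0.00083 by edgeR. *Ldhc* had −0.30 ± 0.18 and −0.33 ± 0.18, neither past the threshold. The sum of this list was 4547 to 6044 normalized CPM in WT, 4406 to 6203 in KO and 4061 to 6941 in KI, with overlap. Most of it came from *Hspa2* and *Ldhc*, a chaperone and a lactate dehydrogenase of spermatocytes, at means of 1832 and 2271 normalized CPM in WT, so that the sum says little of the other genes of the list.

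**Figure D5:**
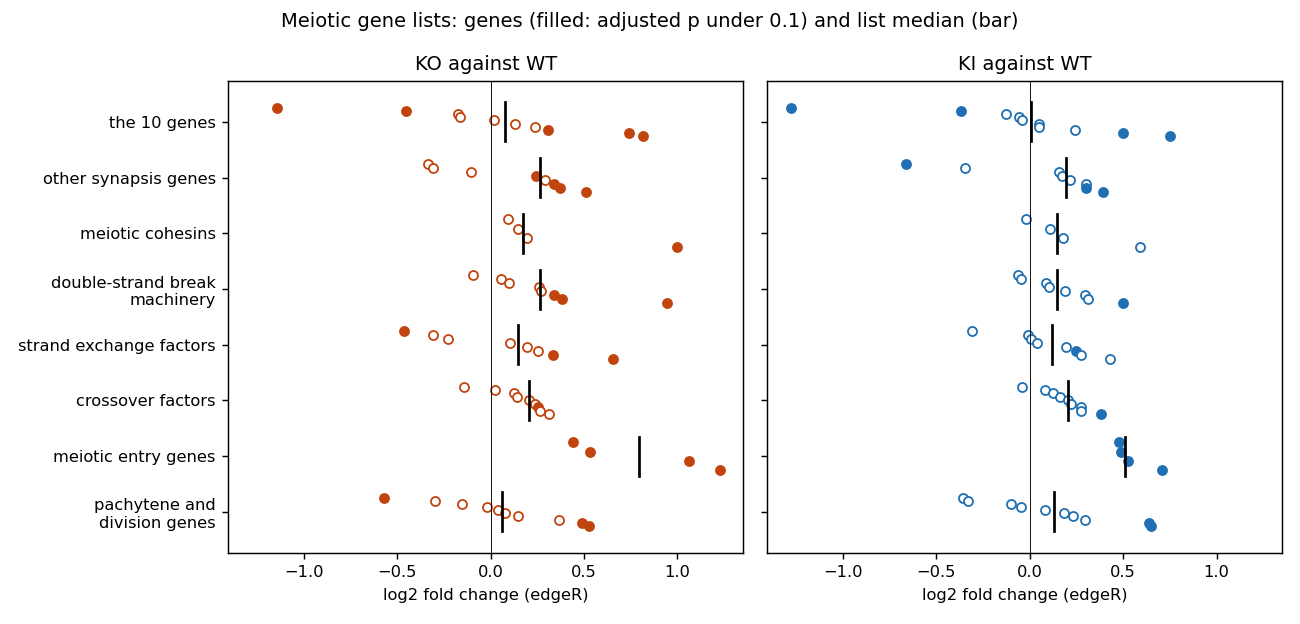
Log2 fold change (x axis, edgeR) of each tested gene of 8 lists of meiotic genes (y axis) in KO against WT (left) and KI against WT (right); filled points have an adjusted p under 0.1 and bars are list medians. The 10 meiotic genes spread to both sides of 0, with medians of 0.075 and 0.00495, and the 4 genes of meiotic entry lie at 0.44 or above in both.

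Markers of other testis cells were read beside these results. Of all tested genes, 16.4% rose and 13.5% fell in KO, and 16.1% rose and 15.4% fell in KI. Leydig cell markers rose in 6 of 6 in KO and 6 of 6 in KI, and summed to 9.76 to 19.7 normalized CPM in WT, 29.9 to 52.0 in KO and 13.4 to 66.1 in KI. The KI libraries were split in this sum. KI 1, KI 2 and the library labelled KI 4 had 46.2, 66.1 and 49.5. KI 3, KI 5 and KI 6 had 16.6, 13.4 and 17.7, within the WT range. Of 7 tested spermatogonial markers, 2 rose in KO and 1 in KI, the latter near the share of all genes. Their sums were 52.9 to 64.3, 56.9 to 89.9 and 56.0 to 94.9. Of 7 Sertoli cell markers 1 fell in each mutant, near the share of all genes, and their sums were 10.99 to 20.3, 8.44 to 17.2 and 9.44 to 17.5. The peritubular and endothelial markers (5 genes) had 2 higher and 1 lower in KO and 1 and 1 in KI, and the macrophage markers (5 genes) 1 higher and 1 lower in each, with sums from 4.16 to 11.2 over all libraries. Of 9 RS markers, 2 fell in KO and 5 in KI, beside 13.5% and 15.4% of all tested genes. They summed to 754.5 to 1328 normalized CPM in WT, 461 to 1185 in KO and 499.7 to 693 in KI, so that every KI library lay below every WT library and KO overlapped with both. The part of these cells in the values of the 10 meiotic genes was not tested. Among the defining markers, *Lhcgr* of Leydig cells was at 0 counts in at least 1 library of WT and of KI, and *Amh* of Sertoli cells at 2 to 15 counts in all.

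The genes whose profile over the 18 libraries lay nearest to the mean standardized profile of the 10 were *Atp6v1h*, *Alg11*, *Rnf169*, *Vps54* and *Cep70*, at a root mean square distance of 0.603 to 0.657 among 10733 genes with a mean of at least 5 normalized CPM. The 10 meiotic genes themselves lay at 0.739 (*Hormad1*) to 1.75 (*Syce1*) from that mean. The 5 neighbours were picked for their small distance, so that their lying closer is no result about the 10.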

How the data were processed

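RNA of RS was measured in 6 libraries each of WT, KO and KI, grouped by their labels. The authors used cutadapt 3.4 for trimming, STAR 2.7.8a for alignment to GRCm38 and featureCounts (Subread 2.0.1) for strand-aware counting of read pairs on GENCODE M18 genes. Duplicates were marked, and the paper describes no removal of them. The deposited values are raw counts for 54232 genes, used without change; 0 columns of values lacked a library. Symbols and positions came from GENCODE M21 (GRCm38), which named 54079 genes. The columns give gene lengths as the summed exons.

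Differences were computed in R 4.3.3 with edgeR 4.0.16 (limma 3.58.1): filterByExpr left 21058 genes, TMM scaled the libraries, and genotype was the only term of 1 quasi-likelihood fit of the 18 libraries. Changes of any amount (glmQLFTest) and past 1 log2 unit (glmTreat, its worst case form) were called at a Benjamini-Hochberg adjusted p under 0.1 over all tested genes, the study's threshold. The code was tested on simulated data. Normalized CPM are CPM of the TMM-scaled library. Floors of 3 counts correspond to 0.112 to 0.160 CPM and cover counting error only, since the paper describes no use of molecular identifiers.

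The 10 genes and all lists were chosen with earlier results of these data known. Named genes are the 10, at most 3 genes per other list with the largest called change, and each list's most abundant gene; not all of these are printed, and 1 gene of the lists is not reported here. Same-numbered libraries did not deviate together (correlations −0.441 to 0.481, with 4 of 18 highest with their own number), so that numbers were not taken as pairs. Alternatives were DESeq2 1.42.0, its size factors, no filter, at least 10 counts in every library, a replicate block, fits of 2 genotypes alone, a threshold of 0.05, summed close pairs, each library left out and, chosen after seeing the data, the interval form of glmTreat. A close pair is 2 libraries of a genotype with an index of difference under 4 over genes with at least 20 counts, where 1 is counting noise. Promoters are RefSeq's on GRCm38.p6. Figures were drawn with Python and matplotlib. The study's miRNA libraries were not analysed here.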

Additional observations from a re-analysis of the deposited data

Results flagged for a closer look

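In groups of 6 libraries, 3 of the 30 combinations of gene and genotype held a library that stood far from the rest (Dixon's test at 95%), where chance flags about 1 in 20 groups. *Sycp1* was at 251 normalized CPM in KO 1, against 152 to 178 in the other KO libraries. *Syce2* was at 80.1 in the library labelled KI 4, against 41.4 to 55.1 in the other KI libraries. *Dmc1* was at 7.62 in the same library, against 3.55 to 4.77. The level of *Ddx25* in that library was 56.9, within the KO range.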

How the results depend on the processing

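*Sycp3* and *Syce2* kept their direction and their calls against WT in both mutants under all 26 alternatives, with log2 fold changes of 0.66 to 0.86 and −1.41 to −1.09. The number of the 10 meiotic genes called in KO moved from 5 to 3 with close pairs summed, and was 4 to 5 when 1 library was left out. It was 4 with DESeq2's size factors, with no filter and at an adjusted p of 0.05, each time without *Hormad1*. In KI it moved from 4 to 2 at an adjusted p of 0.05 and to 2 with close pairs summed, and was 2 to 4 when 1 library was left out, with 2 without WT 5. It was 3 with no filter, without *Spo11*. Calls over all tested genes fell too. With close pairs summed they went from 6297 to 3655 in KO and from 6644 to 3402 in KI. At an adjusted p of 0.05 they were 4938 in KO and 5231 in KI. The falls among the 10 are thus not particular to them. Past 1 log2 unit the number of the 10 called stayed at 0 in the 3 comparisons under every alternative. These include the interval form of glmTreat, which was chosen after seeing the data. Some calls of the list genes named above also depended on the processing. In KO they passed in 23 of 26 alternatives for *Mnd1* and 24 for *Trip13* and *Iho1*. They passed in 25 for *Tex12*, *Meiob*, *Rad21l* and *Meioc*. In KI they passed in 25 for *Trip13*, 21 for *Meiosin* and 19 for *Stra8*. Summing close pairs leaves fewer libraries, and the cause of the other moves was not tested.

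Signs turned only where the change was small. *Msh4* in KO had −0.0112 with DESeq2, −0.0112 with DESeq2's size factors and −0.0217 with no filter. *Syce1* in KI had 0.001 with only the genotypes compared. *Psmc3ip* in KI had 0.0017 with DESeq2, 0.002 with its size factors, 0.0149 with no filter, 0.0281 with only the genotypes compared and 0.0056 with close pairs summed. Between KI and KO, *Sycp3* had −0.0088 with close pairs summed and *Hormad1* 0.0042 with only the genotypes compared. With 1 library left out, the values ranged from −0.0402 to 0.118 (*Msh4*, KO), −0.184 to 0.0348 (*Msh4*, KI), −0.0394 to 0.246 (*Syce1*, KO), −0.152 to 0.0752 (*Syce1*, KI), −0.0784 to 0.141 (*Sycp2*, KI), −0.188 to 0.0532 (*Hormad2*, KI), −0.0755 to 0.0298 (*Ankrd31*, KI) and −0.0937 to 0.0735 (*Psmc3ip*, KI). Between KI and KO they ranged from −0.0462 to 0.0687 (*Sycp3*), −0.0968 to 0.0069 (*Hormad1*) and −0.0137 to 0.227 (*Hormad2*).

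With the replicate number as a block, 5 of the 10 were called in KO and 4 in KI, and *Sycp2* in KI had −0.0078. The numbers do not pair the libraries, and 4 of 18 correlated best with their own number. The median of all genes moved by less than 0.1 under each scaling. The limits are 6 libraries per genotype, pairs of libraries close to counting noise, the library labelled KI 4, and the low counts of *Dmc1*.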
